A study of Mus musculus with 33 samples.

Results

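The genes described here are 10 markers and regulators of mesenchyme, neural crest and the skeletal lineages, taken from a list of symbols and located by their gene bodies in the RefSeq annotation of GRCm38. They are Col1a1, Col1a2, Col3a1, Postn, Sox10, Pax3, Sox9, Runx2, Twist1 and Myod1, all 10 were found, and they stand among 20661 protein-coding genes on chromosomes 1 to 19. H3K9me2, a histone mark of repressed chromatin, and Lamin B1, a protein of the nuclear lamina, were mapped by CUT&RUN, which releases the DNA under an antibody from unfixed cells, in whole hearts and right forebrain lobes of E11.5 embryos and in mouse embryonic stem (mES) cells. Each antibody had 3 libraries per source, and IgG had 6 in heart, 6 in forebrain and 3 in mES cells, 33 in all. The hearts and forebrains came from wild-type C57BL/6 mice, pooled by litter. The mES cells are a C57BL/6 line kept in LIF + 2i medium, and the labels say that they were first plated on inactivated embryonic fibroblasts, cells that make matrix themselves. No transgene, deletion or drug treatment other than that medium is named in any group.

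The deposited maps give stretches of 10 kb bins as LAD (lamina-associated domain), KOD (the depositors' label, not spelled out in the labels) or open, and a bin can also be in no list. There is 1 list per state and source, which pools the replicates and carries no score, so no value below has a replicate error, no difference could be tested, and the depth behind a bin is unknown. The 10 genes are read beside the same counts over all protein-coding genes, and nothing particular to them is drawn from that. The heart map had more bases in no list, 11.6% of its span, than the forebrain map with 7.71% and the mES map with 7.17%, and its LADs were shorter, with medians of 90 kb in heart, 120 kb in forebrain and 160 kb in mES cells. Heart and forebrain are mixtures of cell types, so a state there is that of the pooled cells, and a state in few cells cannot be told apart from a weak one in many. Expression was not measured. Markers of the sources could be checked only for their domain: Actc1, cardiac actin, was open in heart and LAD in forebrain and mES cells, and Dppa4, a pluripotency gene, was LAD in heart and forebrain and open in mES cells. The embryonic globin genes Hbb-y and Hbb-bh1, which mark red blood cells, were open in heart and LAD in forebrain and mES cells.

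Mesenchyme is loose embryonic tissue whose cells make collagen fibres, and in the head and the outflow tract of the heart much of it comes from the neural crest, cells that leave the dorsal neural tube. Type I collagen is built from the products of Col1a1 and Col1a2, type III collagen from Col3a1, and periostin, from Postn, is a matrix protein of heart valves, periosteum and tendon. Pax3 and Sox10 are transcription factors of the neural crest, and Pax3 also acts in muscle precursors. Sox9 is needed for cartilage, Runx2 for bone, Twist1 for cranial mesenchyme, and Myod1 drives the skeletal muscle fate. Long stretches of chromatin at the lamina hold mostly silent, gene-poor DNA.

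In heart 9 of the 10 gene bodies were open and Runx2 was KOD, where a gene takes the state found over most of its body or, failing a majority, over more of it than any other. None was LAD or in no list there. In forebrain 4 were open (Col1a2, Postn, Sox10, Runx2), 4 were KOD (Col1a1, Pax3, Sox9, Myod1), Col3a1 was LAD and Twist1 was in no list. In mES cells 5 were open (Col1a1, Col1a2, Sox10, Pax3, Sox9), 3 were KOD (Postn, Runx2, Myod1), Col3a1 was again LAD and Twist1 again in no list. Over all protein-coding genes 58% were open in heart, 57.4% in forebrain and 63.6% in mES cells. KOD were 17.8%, 18.9% and 12.9% of all genes in heart, forebrain and mES cells, LAD were 14.2%, 16.5% and 16.5%, and in no list were 9.99%, 7.21% and 7.04%. The open count of the 10 was thus above the open share of all genes in heart. With 20 kb trimmed from domain ends it was 6 of 10 there, against 49.5%. The genes were chosen with earlier results of these data known, so the heart count is not an independent observation. The open count was somewhat below the open share in forebrain and mES cells, and the LAD counts were somewhat below the LAD shares. With 10 genes these lower counts are near the shares of all genes and are not read as a difference. The median open share of a body was 100% in heart, 24.6% in forebrain and 61.9% in mES cells for the 10 genes, and 100% in every source for all genes.

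**Figure D1:**
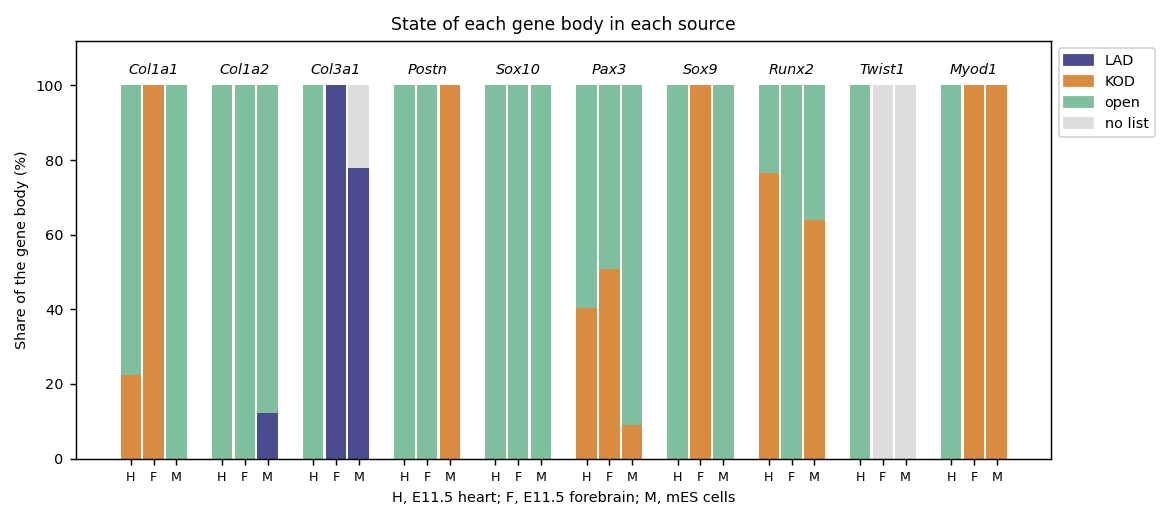
Share of each gene body (%, vertical axis) in LAD, KOD, open and no list, for 10 genes in E11.5 heart (H), E11.5 forebrain (F) and mES cells (M), 1 pooled map per source and so no error bars. The heart bars are open over the largest part of every body but that of Runx2, with KOD parts in Runx2, Pax3 and Col1a1, and LAD and unlisted parts stand in forebrain and mES bars alone.

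The start regions of 3 genes are shown because these genes were open in heart and not in mES cells and have an entry in the RefSeq promoter table of GRCm38.p6, which holds 5 of the 10 genes (Col1a2, Col3a1, Postn, Runx2 and Twist1). The first was taken by the rule for named genes, and the other two after their states were seen. Each is the 250 bases before the start of transcription, 5′ to 3′ on the gene's own strand, all on the plus strand. Capitals mark matches on either strand to 4 short motifs, namely CANNTG (the E-box that Twist1 and Myod1 proteins can bind), TGTGGT (RUNX), AACAAT (SOX) and TATAAA. They lie at chr1:45311288-45311537 for Col3a1, chr3:54359017-54359266 for Postn and chr12:33957421-33957670 for Twist1.
Col3a1: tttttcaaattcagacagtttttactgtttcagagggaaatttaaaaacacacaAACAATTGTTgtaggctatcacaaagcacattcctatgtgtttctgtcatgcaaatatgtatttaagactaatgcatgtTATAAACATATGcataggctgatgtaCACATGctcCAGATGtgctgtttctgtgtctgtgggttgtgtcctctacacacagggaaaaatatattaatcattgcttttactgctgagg
Postn: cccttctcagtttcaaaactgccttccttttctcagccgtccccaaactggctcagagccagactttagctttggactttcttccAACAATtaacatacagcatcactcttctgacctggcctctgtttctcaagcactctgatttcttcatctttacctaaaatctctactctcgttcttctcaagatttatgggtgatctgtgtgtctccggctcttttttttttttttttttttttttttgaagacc
Twist1: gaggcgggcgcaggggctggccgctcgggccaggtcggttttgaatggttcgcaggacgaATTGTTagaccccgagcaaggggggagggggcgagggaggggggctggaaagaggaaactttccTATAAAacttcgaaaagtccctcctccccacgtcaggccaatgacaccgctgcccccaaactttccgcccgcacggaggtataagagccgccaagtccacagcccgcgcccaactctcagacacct
The Col3a1 window had 4 E-box matches, 2 SOX matches and 1 TATAAA, with 1 E-box match lying across both SOX matches. The Postn window had 1 SOX match. The table also holds a second Postn start, whose window at chr3:54360857-54361106 had 1 TATAAA and 0 SOX matches, with 4 CG dinucleotides and a GC share of 52%. The window of Twist1 had 1 SOX match and 1 TATAAA. Among 20084 windows of the same length before starts of protein-coding genes, 62.6% held an E-box, 12.2% a RUNX match, 7.94% a SOX match and 11.7% a TATAAA. Letters that match are no evidence of binding. CG dinucleotides numbered 0 in Col3a1, 3 in the first Postn window and 18 in Twist1, with 11 in Col1a2, 0 in Runx2 and a median of 10 over all windows. By state of the bin with the start, the median of all windows in heart was 14 when open, 10 in KOD, 1 in LAD and 6 in no list. Col3a1 had a GC share of 35.2%, beside medians of 58.8% for open and 40.8% for LAD starts in heart, and its own start was open in heart, LAD in forebrain and in no list in mES cells.

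Col3a1, the gene of type III collagen (gene ID 12825, chromosome 1, 45311538 to 45349706), was the only gene of the 10 to take the LAD state in any source. Its body was 100% open in heart, 100% LAD in forebrain, and 77.8% LAD and 22.2% in no list in mES cells. Of all protein-coding genes 1.12% were open in heart and LAD in forebrain, for 1.67% the heart was open where mES cells had a LAD, and 108 genes, 0.523%, had the full pattern of Col3a1. The open stretch of heart spanned 45280001 to 45480000, 200 kb, from 31.5 kb before the body to 130 kb after it. In the forebrain a single LAD of 1550 kb, 44200001 to 45750000, ran over the same ground. In mES cells the LAD call on the body was only a 30 kb stretch, 45320001 to 45350000, between unlisted bins, and the bin with the start of transcription was in no list. The 100 kb on the side of lower coordinates, upstream of the start, was 48.5% LAD, 31.5% open and 20% unlisted in heart, 100% LAD in forebrain, and 68.5% LAD and 31.5% unlisted in mES cells. The downstream 100 kb was 100% open in heart, 100% LAD in forebrain, and 40.3% LAD and 59.7% unlisted in mES cells. The nearest gene, Col5a2, of the type V collagen chain, lies 24.6 kb downstream and was 81.9% open in heart, 100% LAD in forebrain and 64.6% in no list in mES cells. Both collagen genes therefore lay in the same open stretch in heart in large part and in the same LAD in forebrain. When 20 kb was trimmed from the ends of domains, or domains under 100 kb were left out, Col3a1 was in no list in mES cells and kept its states in heart and forebrain.

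Col1a2, the second chain of type I collagen (gene ID 12843, chromosome 6, 4505618 to 4541543), was open in every source, covering 100% of the body in heart, 100% in forebrain and 87.8% in mES cells. The remaining 12.2% in mES cells was LAD, and it lay at the start of the gene, whose first bin was open in heart, open in forebrain and LAD in mES cells. The upstream 100 kb was 64.4% LAD and 35.6% open in heart. It was 30% LAD, 24.4% KOD, 5.62% open and 40% unlisted in forebrain, and 100% LAD in mES cells. The downstream 100 kb was 100% open in all sources, and Casd1, 59.4 kb away, was 100% open in each. The open stretch over Col1a2 began 35.6 kb before the body in heart, next to a LAD, 5.62 kb before it in forebrain, next to an unlisted bin, and 4.38 kb inside it in mES cells, next to a LAD. The other edge of that open stretch lay at 4790000 in heart and forebrain and at 4800000 in mES cells. Trimming 20 kb from domain ends left Col1a2 in no list in mES cells.

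Col1a1, the first chain of type I collagen (gene ID 12842, chromosome 11, 94936224 to 94953042), was 77.5% open and 22.5% KOD in heart, 100% KOD in forebrain and 100% open in mES cells. The 100 kb of lower coordinates was 100% KOD in heart, 100% KOD in forebrain, and 73.8% KOD and 26.2% open in mES cells. The 100 kb of higher coordinates was 100% open in heart, 60% open and 40% KOD in forebrain and 100% open in mES cells. A border between KOD and open lay near the gene in each source, 3.78 kb inside the body in heart, 37 kb beyond its higher end in forebrain and 26.2 kb below its lower end in mES cells. Sgca, the alpha-sarcoglycan gene of muscle, 9.73 kb away on the open side, had the states of Col1a1, open in heart, KOD in forebrain and open in mES cells, over 100% of its body in each. The heart state is a close one, since Col1a1 touched only 3 bins there and was in no list once 20 kb was trimmed from domain ends. The genes of both type I chains were open in heart and mES cells and differed in forebrain, where Col1a1 was KOD and Col1a2 open.

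Postn (gene ID 50706, chromosome 3, 54359267 to 54391041) was 100% open in heart, 100% open in forebrain and 100% KOD in mES cells, a pattern shared by 642 genes, 3.11% of all. In heart its open stretch was 70 kb long and in forebrain 90 kb, each ending 8.96 kb beyond the body at a KOD. In mES cells the KOD was 400 kb long, 54140001 to 54540000. The 100 kb upstream was 29.3% open, 30% LAD and 40.7% unlisted in heart, 49.3% open and 50.7% unlisted in forebrain, and 100% KOD in mES cells. The 100 kb downstream was 91% KOD in heart, 51% KOD and 40% unlisted in forebrain, and 100% KOD in mES cells. The open call in the tissues was therefore a short island around the gene, and with domains under 100 kb left out Postn was in no list in heart and forebrain. With 100 kb added on each side it was KOD in heart and in no list in forebrain. Trpc4, a cation channel gene 40.8 kb upstream, was not open by its largest share in any source. It was 58% KOD in heart, 70.2% unlisted in forebrain and 100% KOD in mES cells. In forebrain the open stretch began 49.3 kb before the Postn body and so took in the near end of Trpc4.

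Sox10 (gene ID 20665, chromosome 15, 79154913 to 79164490) was 100% open in heart, forebrain and mES cells, as were 9038 genes, 43.7% of all, by the largest share of the body. What differed was the higher-coordinate side, 90% KOD in heart, 70% KOD in forebrain and 0% KOD in mES cells, where it was 100% open. The lower side was 100% open in heart, 94.9% in forebrain and 100% in mES cells, and it holds the RNA polymerase subunit gene Polr2f, 3.14 kb away. Sox10 thus stood 5.51 kb from the end of an open stretch in heart and forebrain and 445 kb from the nearest end in mES cells, whose stretch was 1280 kb long with 42 protein-coding genes inside. Pick1, 64.6 kb away on the side that differed, was KOD in heart and forebrain and open in mES cells. Trimming 20 kb from domain ends left Sox10 in no list in heart and forebrain.

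Pax3 (gene ID 18505, chromosome 1, 78101267 to 78197136) was divided between states. It was 59.6% open and 40.4% KOD in heart, 49.2% open and 50.8% KOD in forebrain, and 90.9% open and 9.11% KOD in mES cells. The call of open in heart and KOD in forebrain therefore turned on a border that lay in the body in all sources and moved by a single 10 kb bin between the tissues. With 100 kb added on each side Pax3 was KOD in both heart and forebrain, and with 20 kb trimmed from domain ends it was in no list in either. The 100 kb of lower coordinates was 100% KOD in heart, 100% KOD in forebrain and 81.3% KOD in mES cells, and the opposite side was 52.9%, 80% and 100% open in heart, forebrain and mES cells. Over 500 kb on each side, KOD made up 56% in heart, 53% in forebrain and 16.1% in mES cells, and LAD 0% in heart, 0% in forebrain and 24.9% in mES cells. The KOD of forebrain that covered part of Pax3 was 640 kb long, 77510001 to 78150000, and held no protein-coding gene wholly.

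Sox9 (gene ID 20682, chromosome 11, 112782210 to 112787757) was 100% open in heart, 100% KOD in forebrain and 100% open in mES cells, the same pattern as Col1a1 and Pax3 and 1037 genes, 5.02% of all. It lies in a gene-poor region with no other protein-coding gene within 100 kb, the nearest being Slc39a11, 457 kb away, and Gm11677, 1056 kb away. Its open stretch was 90 kb in heart, 112740001 to 112830000. A KOD of 80 kb, 112740001 to 112820000, took its place in forebrain, and in mES cells the open stretch was 140 kb, 112730001 to 112870000. The lower 100 kb was 47.8% LAD, 42.2% open and 10% unlisted in heart, 90% KOD and 10% open in forebrain, and 17.8% LAD, 30% KOD and 52.2% open in mES cells. The higher 100 kb was 57.8% KOD and 42.2% open in heart, 90% KOD in forebrain, and 17.8% KOD and 82.2% open in mES cells. Within 500 kb on each side KOD made up 45% in heart, 59.4% in forebrain and 15% in mES cells, and LAD 21.8%, 10.8% and 41.8%. Open bins made up 32.2%, 29.8% and 43.2%. KOD was thus the most common state in both tissues, and in mES cells open and LAD were about equally common. With domains under 100 kb left out, Sox9 was in no list in heart and forebrain and open in mES cells.

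Runx2 (gene ID 12393, chromosome 17, 44495987 to 44814797), the longest of the 10 at 319 kb, was the only one not open in heart. It was 76.5% KOD and 23.5% open in heart, 100% open in forebrain, and 64% KOD and 36% open in mES cells. Only 374 genes, 1.81% of all, were KOD in heart and mES cells and open in forebrain. The gene is on the minus strand, so its start lies at the higher end, and that end was open in every source, with the border to the KOD 74.8 kb inside the body in heart and 115 kb inside it in mES cells. The 100 kb beyond the 3′ end was 100% KOD in heart, 34% KOD and 66% open in forebrain, and 100% KOD in mES cells. The 100 kb beyond the start was 90% open in heart, 100% in forebrain and 80% in mES cells. Supt3, a transcription cofactor gene that overlaps the start side of Runx2, was open in heart, forebrain and mES cells, over 85.6%, 82.7% and 76.8% of its body. The states of Runx2 did not change under any of the 6 alternative settings that were run.

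Twist1 (gene ID 22160, chromosome 12, 33957671 to 33959831) was 100% open in heart and in no list in forebrain and mES cells, as were 132 genes, 0.639% of all. The unlisted gap was 50 kb in forebrain and 70 kb in mES cells, with LAD on both sides. In forebrain the upstream and downstream 100 kb were 72.3% and 69.8% LAD with the rest unlisted, and in mES cells 72.3% and 59.8%. In heart the upstream 100 kb was 57.7% open and 42.3% LAD, and the downstream 100 kb 60.2% open and 39.8% unlisted. Over 500 kb on each side LAD made up 33% in heart, 87% in forebrain and 83% in mES cells, and open bins 45% in heart, 0% in forebrain and 0% in mES cells. The nearest gene on each side, unlike Twist1, was listed in every source. The states of these neighbours do not give that of Twist1 where it was unlisted. Ferd3l, 28.4 kb upstream, was 100% open in heart, 100% LAD in forebrain and 100% LAD in mES cells, and Hdac9, a histone deacetylase gene 87.7 kb downstream, was 49.5% open in heart, 71.2% LAD in forebrain and 91.1% LAD in mES cells. With 100 kb added on each side, the window around Twist1 counted as open in heart and LAD in forebrain and mES cells. The LAD bases of that window all lay outside the body.

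Myod1 (gene ID 17927, chromosome 7, 46376474 to 46379092) was 100% open in heart, 100% KOD in forebrain and 100% KOD in mES cells, a pattern of 118 genes, 0.571% of all. The extent of the KOD differed. In mES cells it was 530 kb, 46100001 to 46630000, and it took in the 100 kb on each side whole. In forebrain it was 80 kb, 46300001 to 46380000, and ended 0.908 kb beyond the body, so that the higher side was 99.1% open. In heart the gene lay 26.5 kb inside an open stretch of 760 kb. Kcnc1, a potassium channel gene 17.1 kb away, was 100% open in heart, 100% open in forebrain and 100% KOD in mES cells. Myod1 was in no list in forebrain without domains under 100 kb or with 20 kb trimmed from domain ends. With 100 kb added on each side it was open in forebrain, as in heart.

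**Figure D2:**
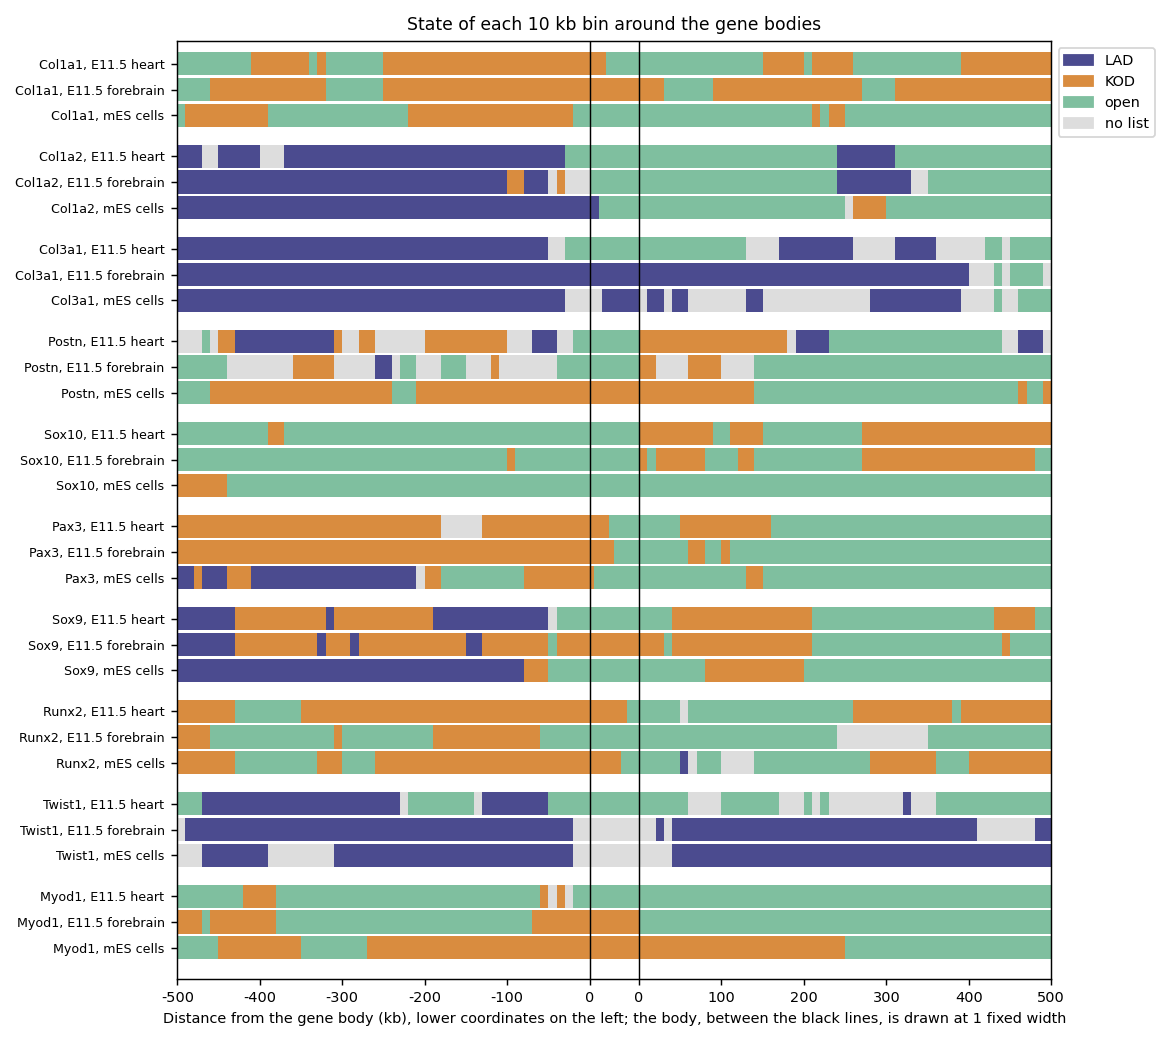
State of every 10 kb bin within 500 kb of each gene (horizontal axis, distance from the body in kb; the body, rounded out to the bins it touches, is drawn at 1 fixed width between the lines), in heart, forebrain and mES cells from top to bottom for each gene. The open bins of heart at Col3a1 face LAD bins in forebrain and LAD and unlisted bins in mES cells, those at Twist1 face unlisted and LAD bins in forebrain and mES cells, and KOD bins of mES cells reach over Postn and Myod1.

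Set side by side by pair, 3 of the 9 genes listed in both differed in state between heart and mES cells (Col3a1, Postn, Myod1), and all 3 were open in heart. Of all genes listed in both, 19.6% differed. Open in heart and KOD in mES cells, as Postn and Myod1 were, held for 3.87% of all genes, and open in heart and unlisted in mES cells, as Twist1 was, for 2.08%. Between forebrain and mES cells 5 of 9 differed (all genes, 22.6%), of which Col1a1, Pax3 and Sox9 were KOD in forebrain and open in mES cells, and Postn and Runx2 were open in forebrain and KOD in mES cells. Of all genes 11.6% had the first of these changes and 5.42% the second. Between heart and forebrain 6 of 9 differed (all genes, 15.2%), of which Col1a1, Pax3, Sox9 and Myod1 were open in heart and KOD in forebrain (all genes, 5.62%), Col3a1 was open in heart and LAD in forebrain, and Runx2 was KOD in heart and open in forebrain (all genes, 4.75%). With Twist1, 6 of 10 were open in heart and not in forebrain, against 9.15% of all genes, and 1 of 10 was the reverse, against 8.52%. Open in heart and not in mES cells were 4 of 10, against 7.62% of all genes, and 0 of 10 were the reverse, against 13.2%. With 20 kb trimmed from domain ends, 3 of 5 genes listed in both differed between heart and forebrain (all genes, 7.64%). With domains under 100 kb left out, 1 of 6 differed between heart and mES cells (all genes, 15.9%) and 3 of 5 between forebrain and mES cells (all genes, 20%). These pairs share maps, so the counts are not independent of each other. Col1a1 and Sox9 share chromosome 11, with 17.8 Mb between them, and Col3a1 and Pax3 share chromosome 1, with 32.8 Mb between them. Open in heart only were Col3a1, Twist1 and Myod1, against 2.5% of all genes. Col1a2 and Sox10 were the 2 of 9 genes with the same state throughout, against 71.7% of all genes listed in every source.

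The median distance of the 10 genes to a border was shorter than that of all genes in every source. The distance from the body to the nearest change of state had a median of 17.7 kb in heart, 14.6 kb in forebrain and 26.9 kb in mES cells, against 48.6, 60.3 and 77.5 kb over all genes. Within 50 kb of such a border, or across it, were 9 of 10 in heart, 8 of 10 in forebrain and 6 of 10 in mES cells, against 50.7%, 45.8% and 39.6% of all genes. With 10 genes the count in mES cells is near the share of all genes and is not read as a difference. The exceptions were Twist1 in heart, Col3a1 and Runx2 in forebrain, and Postn, Sox10, Sox9 and Myod1 in mES cells. Pax3 held a border inside its body in all sources.

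The surroundings were less open than the genes in heart. The mean open share was 86.1% of the body and 51% of the 100 kb on each side in heart, 44.9% and 36.9% in forebrain, and 51.5% and 38% in mES cells. Over all genes the same pairs were 57.8% and 52.3%, 57.2% and 52.5%, and 63.6% and 60%. KOD took 30.3%, 35.1% and 35.1% of the adjoining 100 kb in heart, forebrain and mES cells, compared with 21.2%, 21.6% and 15.1% over all genes. At 400 to 500 kb from the body the open share was 44.7%, 45.7% and 45.1% for the 10 genes. For all genes it was 40.8%, 42.8% and 46.8%. In heart the mean of the 10 genes was thus closer to that of all genes there than in the body. Single genes differed, and over 500 kb on each side in heart the open share ranged from 23.2% at Col3a1 to 92% at Myod1. With 10 genes each mean can move by much with a single gene.

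**Figure D3:**
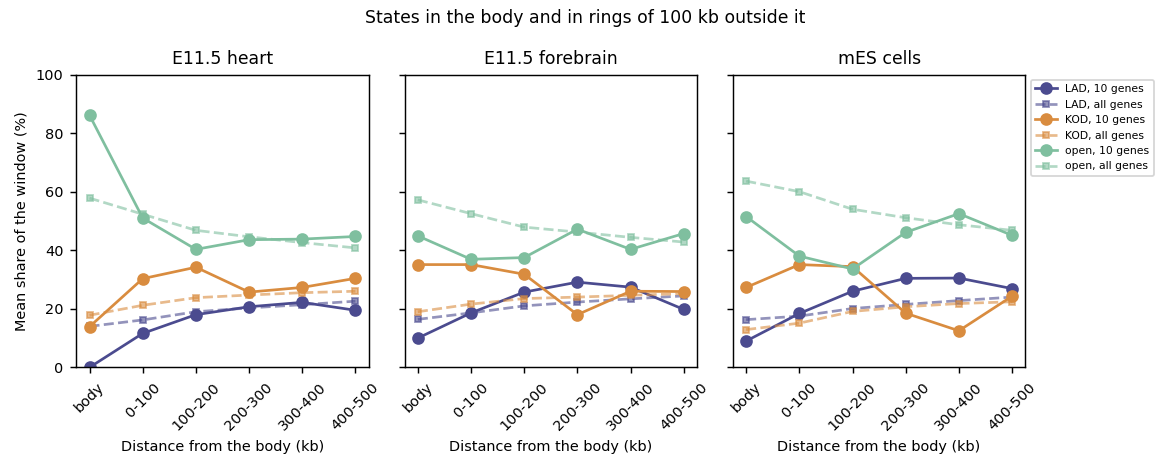
Mean share (%) of the gene body and of successive rings of 100 kb on both sides in LAD, KOD and open, for the 10 genes (solid lines, circles) and all protein-coding genes (dashed lines, squares) in heart, forebrain and mES cells. The open share of the 10 genes in heart is 86.1% in the body and 51% in the first ring, next to 57.8% and 52.3% for all genes.

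Other genes of these lineages, in 4 lists that leave the 10 genes out, were matched in full, 101 in all. The shares of all genes to read them against are 58%, 57.4% and 63.6% open and 14.2%, 16.5% and 16.5% LAD in heart, forebrain and mES cells. For KOD they are 17.8%, 18.9% and 12.9%. Of 26 matrix and mesenchyme genes, open were 14 in heart, 11 in forebrain and 7 in mES cells, and LAD were 4 in heart, 7 in forebrain and 9 in mES cells. KOD were 6, 5 and 6. Fbn1 and Fbn2, of the fibrillins, and Thbs1, thrombospondin, were open in heart, and LADs of mES cells held 82.6%, 64.7% and 100% of their bodies. In forebrain Fbn2 and Thbs1 were open too. Pdgfrb, a receptor of mesenchymal cells, was open in heart and forebrain and KOD in mES cells, and Thy1, a surface protein of fibroblasts and neurons, was KOD in heart and forebrain and open in mES cells. Open in heart and not in mES cells were 8 of the 26, against 7.62% of all genes, and 1 was the reverse, against 13.2%.

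Of 27 further neural crest genes, 15 were open in heart, 12 in forebrain and 12 in mES cells, and 2, 4 and 3 were LAD. KOD were 7, 10 and 9, which is 25.9%, 37% and 33.3%, beside 17.8%, 18.9% and 12.9% of all genes. Foxd3, Pax7, Sox5 and Erbb3, which act in neural crest cells, were open in heart and KOD in forebrain, as Pax3 was. Kit, a receptor of melanocyte precursors, was the reverse. Ednra, the endothelin receptor of crest-derived mesenchyme, was open in heart, and 72.4% of it was LAD in mES cells, and Edn3, a ligand of the same family, was LAD in heart, LAD in forebrain and KOD in mES cells. Ets1 and Ret were open in heart and forebrain and KOD in mES cells, as Postn was.

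Of 26 cartilage and bone genes, 13 were open in heart, 13 in forebrain and 16 in mES cells. KOD were 7, 9 and 5, and LAD were 0, 1 and 3. Acan, the aggrecan gene of cartilage, was open in heart and forebrain and KOD in mES cells, while Col11a2, Alpl and Ihh were KOD in heart and forebrain and open in mES cells. Sp7, which acts after Runx2 in bone cells, and Runx3 were open in heart and KOD in forebrain, the reverse of Runx2. Bmp4 was KOD in heart over 90.6% of its body and open in forebrain and mES cells. Sox6, a partner of Sox9 in cartilage, was open in heart, KOD in forebrain and LAD in mES cells.

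Of 22 skeletal muscle genes, 9 were open in heart, 11 in forebrain and 10 in mES cells. KOD were 10, 7 and 8, beside 17.8%, 18.9% and 12.9% of all genes. Met, the receptor of migrating muscle precursors, was 100% open in heart, 54.8% LAD in forebrain and 100% LAD in mES cells. Lbx1, a factor of the same precursors, was KOD in heart and forebrain and open in mES cells. Mymk and Musk, of muscle fusion and the neuromuscular junction, were KOD in heart and open in forebrain. Over the 4 lists together 51 of 101 genes were open in heart, 47 in forebrain and 45 in mES cells, which is 50.5%, 46.5% and 44.6%, beside 58%, 57.4% and 63.6% of all genes. The high open count of the 10 genes in heart was thus not seen across the wider lists. Differing in state were 28% of their genes listed in heart and mES cells, 26.4% in forebrain and mES cells and 18.1% in heart and forebrain, beside 19.6%, 22.6% and 15.2% of all genes.

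**Figure D4:**
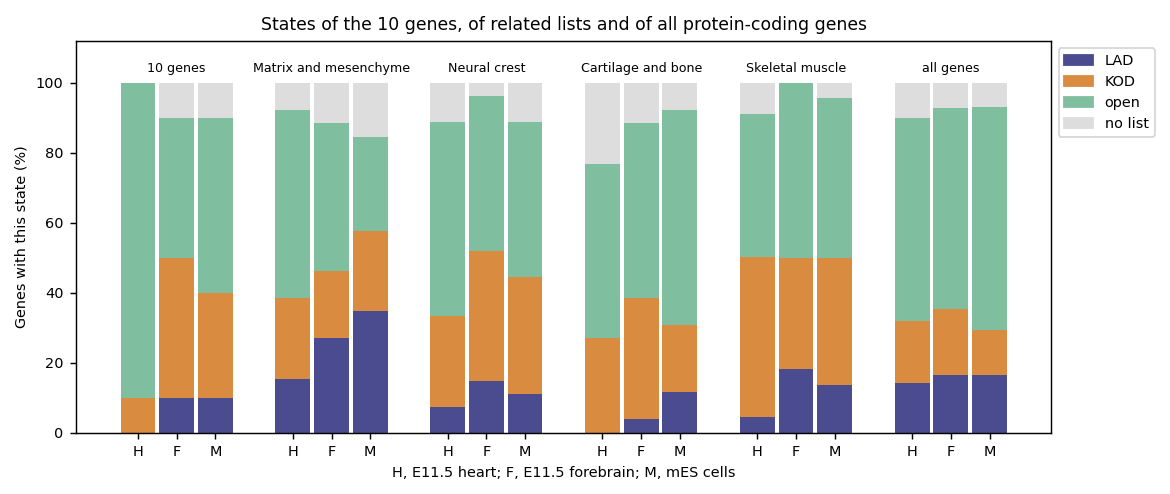
Percentage of genes in each state, by the largest share of the body, for the 10 genes, 4 related lists (26, 27, 26 and 22 genes) and all 20661 protein-coding genes, in heart (H), forebrain (F) and mES cells (M). The open part in heart is 9 of 10 for the 10 genes and from 40.9% to 55.6% in the lists.

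The genes on other chromosomes most like each of the 10, over their 36 shares (body and both 100 kb sides, 3 sources, 4 states), differed little for some and much for others. The measure is the mean percentage of a window that was in another state. Closest were Gm12250 to Sox10 at 0.565%, 4430402I18Rik to Runx2 at 4.44%, Sdsl to Col1a1 at 4.99% and Dlg1 to Pax3 at 6.41%. By the largest share of its body Dlg1 was open in every source, while Pax3 was KOD in forebrain. For the others the closest were Olfr412 to Col1a2 at 9.03%, Rusf1 to Sox9 at 11.7%, Foxa2 to Twist1 at 13.7%, Mup2 to Col3a1 at 13.7% and Sirpa to Postn at 15.6%, and Ythdf1 to Myod1 lay between those of Col1a2 and Sox9. Each second gene was farther, the farthest being Olfr1415 to Postn at 18.1%.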

How the data were processed

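H3K9me2, Lamin B1 and IgG were profiled by CUT&RUN in 33 libraries of E11.5 heart, E11.5 forebrain and mES cells. The authors deposited 9 lists of domain positions in whole 10 kb bins, with no score or other value, each pooling the libraries of a source. Per the submitters' processing notes, the genome was mm10 and the tools were Bowtie2 2.5.0, cutadapt 4.2, deepTools, Picard and Trim Galore. The domain caller, its thresholds and the use of IgG are not given in the sources used here. No signal track was analysed.

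Lists were painted in bins with Python 3.11.15, numpy 2.4.6 and pandas 2.3.3, and figures drawn with matplotlib 3.10.9. Code was tested on simulated data. Shares are percentages of bases, over the RefSeq body in GRCm38.p6 (the assembly of mm10) and 100 kb on each side. A gene's state covers the largest share of its body. No test was run, since each source has 1 pooled map. Bins that few reads can map to may drop out of every list. Promoters were matched by symbol.

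All 10 genes are named, with nearest neighbours, the 2 most alike genes on other chromosomes, and up to 6 genes per related list and pair that differ in state. The members and lists were chosen with earlier results of these data known.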

Additional observations from a re-analysis of the deposited data

How the results depend on the processing

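Of the 30 states (10 genes in 3 sources), all 30 were the same at the midpoint of the body, by listed bases only, and with 50 kb added on each side. With 20 kb trimmed from each domain end 22 were, without domains under 100 kb 24, and with 100 kb added 24. With 20 kb trimmed, LAD genes numbered 0 in mES cells (all genes, 14.8%) and KOD genes 2 in forebrain (13.9%). Genes in no list were 3 in heart (26.3%), 4 in forebrain (22%) and 3 in mES cells (18.1%). Heart and forebrain differed in 3 of the 5 genes listed in both (all genes listed in both, 7.64%). With short domains left out, LAD were 0 in mES cells (all genes, 15.7%) and KOD 2 in forebrain (16.1%). In no list were 2 in heart (19.2%), 4 in forebrain (15.5%) and 2 in mES cells (12.3%). Of genes listed in both, 1 of 6 differed between heart and mES cells (15.9%) and 3 of 5 between forebrain and mES cells (20%). With 100 kb added, LAD were 2 in forebrain (all genes, 18.2%) and 2 in mES cells (17.4%), KOD 3 in heart (19.1%) and no list 0 in mES cells (5.86%). Trimming and the length limit take bases off the lists by construction. Open in heart under these were 6 and 7 of the 10 genes, against 49.5% and 53% of all genes. For the added 100 kb the cause was not tested. The state at the start of transcription was not run as a count, since strand was at hand for 5 of the 10 genes. No replicate could be left out and no paired analysis was possible because each list pools the libraries of its source.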
